A study of Caenorhabditis briggsae with 10 samples.

Results

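The genes described here are those of the nematode Caenorhabditis briggsae whose level differed between the strains HK104 and AF16 while both alleles were read about equally in the hybrid of the strains. Members were chosen by measured values. P was log2 of the mean HK104 over the mean AF16 CPM (counts scaled to a common library total, with 0.5 added to each), and A was log2 of HK104 over AF16 allele reads in the hybrid library of the same condition. A gene was chosen when, in the control or the cold libraries, P was at least 1 in size (2-fold), the libraries of the strains did not overlap and A was at most 0.32 in size, which corresponds to 44.5% to 55.5% HK104 reads. At least 40 allele reads were required in each hybrid library, which 6849 of 23175 genes had, and 169 genes met the rule. Of these, 122 met it after cold only, 35 without cold only and 12 in both conditions. Since P and A chose the genes, both are given as a description wherever they come from the libraries that did so.

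The samples were whole worms, wild type per the labels, of HK104 (the temperate representative), of AF16 (the tropical one) and of the AF16/HK104 hybrid. Growth was at 20 °C for 24 hours, from synchronised worms in the later part of L4, the last larval stage. Cold worms were then held at 4 °C for 60 hours, and control worms were collected without that step. The HK104 cold, AF16 cold, HK104 control and AF16 control groups had 2 libraries each, and the hybrid had 1 cold and 1 control library. No group was kept for the same 60 hours without cold, so cold and elapsed time cannot be told apart. The labels give neither the direction of the hybrid cross nor the sex of the worms, and nothing says that replicates came from separate cultures, so p-values measure only the spread between these libraries. In whole worms, fewer cells of a type and less RNA per cell cannot be told apart.

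A gene's level can differ between strains through its own regulatory sequence (in cis) or through diffusible regulators made elsewhere in the genome (in trans). In a hybrid both alleles meet the same regulators, so that a difference acting in cis persists between the alleles and one acting in trans does not. Unequal parents with equal hybrid alleles are therefore the usual criterion for trans divergence, whereas unequal alleles in the direction of the parents are that for cis divergence. The deposited tables name genes by WormBase IDs, and 0 of the 23175 IDs matched the RefSeq gene table for the CB4 assembly, so gene functions, positions and sequences are not given, and the tissue label could not be set against marker genes.

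Parental libraries held 15360979 to 18362210 counts, and the hybrid libraries 6008659 (cold) and 5334965 (control) reads assigned to an allele. Over the 6849 genes, A had a median of -0.03 after cold and -0.05 without cold. The total of allele reads leaned to AF16, with 46.9% HK104 reads after cold (log2 ratio -0.18) and 46.6% without cold (-0.20). Alleles differed 8-fold or more at 398 genes after cold and at 394 without cold. At 64.1% of these genes after cold and 65.2% without cold the strains themselves had P of at most 0.32 in size, so that large A values were common where the parents were alike. How reads were assigned to alleles is not given in the sources used here, and whether this affects the balanced genes was not tested.

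At the limit set on A by the rule, a minority of the genes with strain differences of this size counted as balanced. After cold, 556 of the 6849 genes (8.12%) had P of at least 1 in size with libraries apart, and 134 of them (24.1%) had A within the limit. Without cold the numbers were 338 genes (4.94%) and 47 (13.9%). Among all 6849 genes, A lay within the limit at 56.3% after cold and 55.8% without cold. These shares are part of the choice of the genes and nothing is read from them. Of the genes chosen after cold, 81 were higher in HK104 and 53 higher in AF16. Of those chosen without cold, 23 were higher in HK104 and 24 in AF16. Just inside the limits lay P of -1.01 after cold and -1.0005 without cold, and A of -0.32 after cold and -0.31 without cold. Just outside lay P of -0.99 after cold and -0.9992 without cold, and A of -0.32 in both conditions (-0.324 after cold and -0.325 without cold).

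**Figure D1:**
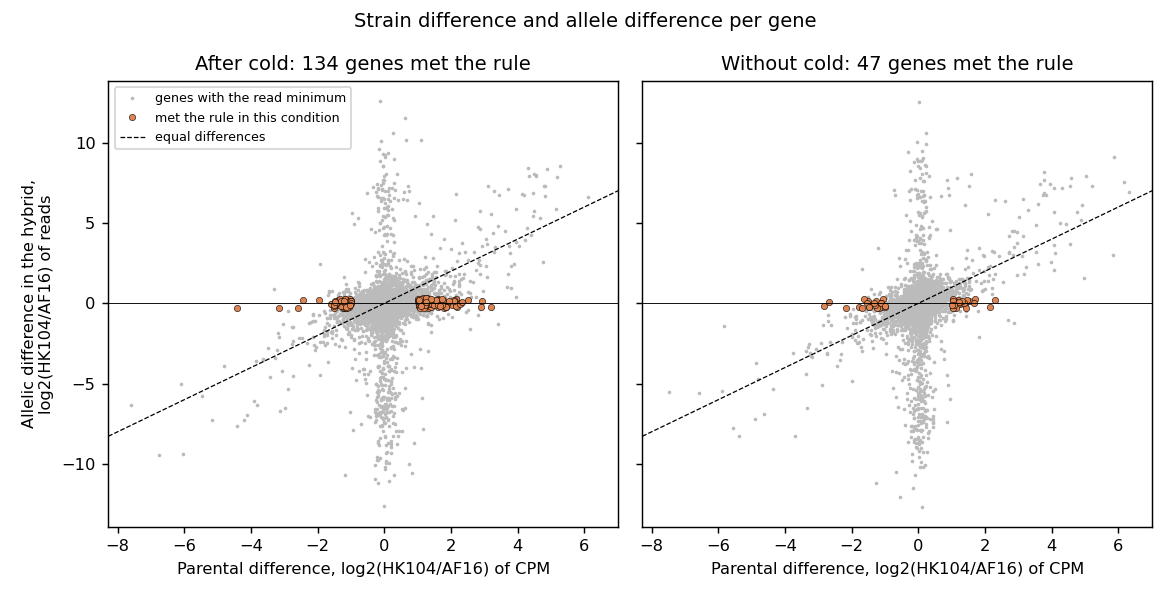
Parental difference P (x axis, log2 of HK104 over AF16 CPM) against allelic difference A in the hybrid (y axis, log2 of HK104 over AF16 reads) for 6849 genes (grey), after cold on the left and without cold on the right. The 134 and 47 genes that met the rule (orange) lie along the line of no allelic difference, away from the dashed line of equal differences, and the vertical band of grey points holds genes with alike parents and very unequal allele reads.

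The balanced alleles were measured with limited counts. Genes chosen after cold had 41 to 5733 allele reads in the cold hybrid library (median 157), and the 95% Wilson interval of the HK104 share was 15.4 percentage points wide at the median. Genes chosen without cold had 44 to 3403 reads in the control library (median 229), with a median width of 12.8 points. These intervals cover counting error only.

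The 12 genes that met the rule in both conditions kept their direction in both, 7 higher in HK104 and 5 higher in AF16. WBGene00024287 had the largest difference in favour of HK104. It had 113 and 92.4 CPM in HK104 cold libraries, against 28.1 and 21.4 CPM in AF16 cold libraries, and 193 and 221 CPM in HK104 controls, against 47.1 and 45.7 CPM in AF16 controls. The hybrid gave 232 HK104 and 226 AF16 reads after cold (50.7% HK104, 95% interval 46.1 to 55.2) and 472 HK104 and 566 AF16 reads without cold (45.5%, 42.5 to 48.5). The strains were about 4-fold apart in both conditions with no overlap, both fell after cold (edgeR FDR = 0.00274 in HK104 and 0.00336 in AF16), and the hybrid alleles stayed near equal.

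WBGene00032552 was also higher in HK104, and it rose with cold in both strains (edgeR FDR = 9.58e-05 in HK104 and 0.000451 in AF16). It had 77.5 and 72.1 CPM in HK104 cold libraries, against 22.7 and 18.1 CPM in AF16 cold libraries, and 14.5 and 9.66 CPM in HK104 controls, against 4.28 and 4.99 CPM in AF16 controls. Its allele reads were 307 HK104 and 366 AF16 after cold and 32 HK104 and 29 AF16 without cold. In the other direction, WBGene00033770 had 8.57 and 5.48 CPM in HK104 cold libraries, against 99.1 and 34.3 CPM in AF16 cold libraries. Its control libraries had 6.75 and 5.32 CPM in HK104 and 50.3 and 42.3 CPM in AF16, so the AF16 cold pair was the most variable of its groups. The hybrid gave 34 HK104 and 42 AF16 reads after cold, and 24 HK104 and 27 AF16 reads without cold. WBGene00026263 had 68.6 and 46.1 CPM in HK104 cold libraries, against 199 and 127 CPM in AF16 cold libraries, and 154 and 212 CPM in HK104 controls, against 342 and 546 CPM in AF16 controls. With 338 HK104 and 412 AF16 reads after cold (45.1% HK104, 41.5 to 48.6) and 1036 and 1171 reads without cold (46.9%, 44.9 to 49.0), it has the most allele reads of these 4 genes.

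**Figure D2:**
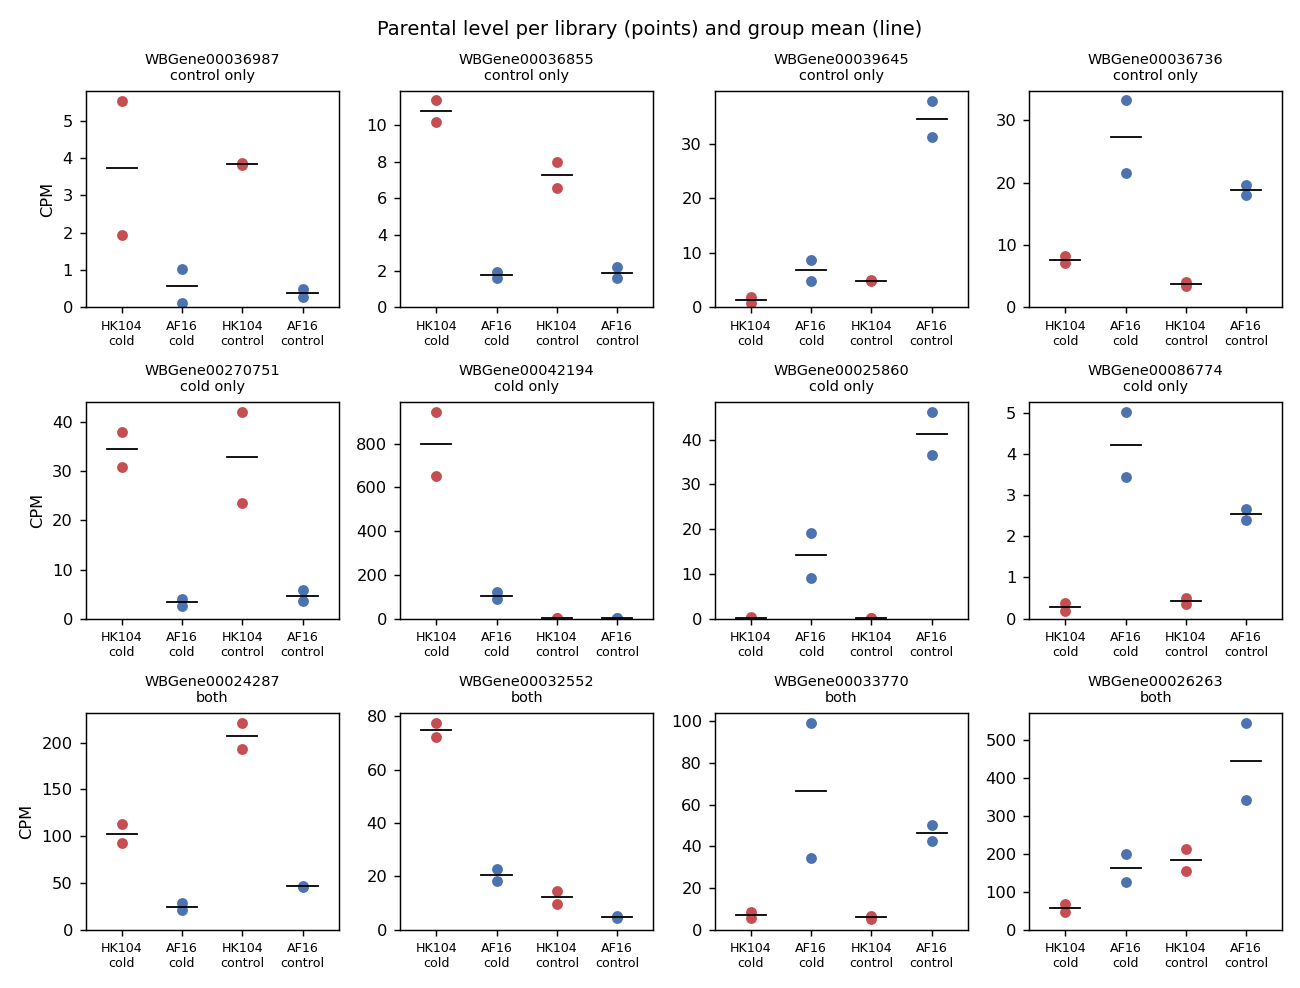
CPM (y axis, linear from 0) in each parental library for the 12 genes with the largest P of their kind, grouped on the x axis as HK104 cold, AF16 cold, HK104 control and AF16 control. Points are the 2 libraries of a group and the line is their mean; rows show genes that met the rule without cold only, after cold only and in both conditions, and within the condition that chose a gene the strains do not overlap.

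The genes chosen from the control libraries can be tested in the cold libraries, which took no part in their choice. The strain difference was largely carried over: 46 of 47 genes had the same sign after cold, and 28 (59.6%) passed the test there, all 28 in the direction of the controls, 14 higher and 14 lower in HK104. Of all 13503 genes tested, 12.7% passed, 7.08% higher and 5.58% lower in HK104. Among the 291 genes with the same strain criterion without cold but unequal alleles, 283 kept the sign of P after cold. Of these 291 genes, 228 (78.4%) passed, with a median size of P of 1.74 after cold. Carry-over was thus not particular to genes with balanced alleles. The median size of P was 1.22 after cold in the 47 genes, beside 0.21 in the 6849 genes with the read minimum, of which 75.0% had the same sign in both conditions. The test was edgeR's quasi-likelihood F test with Benjamini-Hochberg adjustment over all genes (FDR below 0.05). Without 1 library at a time the count lay between 20 and 30. A fit of the 4 cold libraries alone called 26 of the 47 (55.3%), against 12.5% of the 11890 genes tested in it.

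Among the genes chosen without cold only, WBGene00036855 had 10.2 and 11.4 CPM in HK104 cold libraries, against 1.95 and 1.63 CPM in AF16 cold libraries, a log2 difference of 2.66 ± 0.31 (SE, n = 2 each; edgeR FDR = 0.000476). Its control libraries had 6.58 and 7.98 CPM in HK104 and 2.2 and 1.62 CPM in AF16. WBGene00036987 had 5.52 and 1.95 CPM in HK104 cold libraries, against 1.04 and 0.109 CPM in AF16 cold libraries (2.83 ± 0.70, SE; edgeR FDR = 0.0259), beside 3.80 and 3.87 CPM in HK104 controls and 0.490 and 0.290 CPM in AF16 controls. Its size and call rested on single libraries: the log2 difference was 4.91 without the first AF16 cold library, 1.78 without the second (FDR = 0.132) and 1.77 without the first HK104 cold library (FDR = 0.283). With scaling by total counts the edgeR FDR was 0.0672. WBGene00036736 had 8.19 and 7.05 CPM in HK104 cold libraries, against 33.2 and 21.5 CPM in AF16 cold libraries (-1.76 ± 0.25, SE; edgeR FDR = 0.00139), and 4.08 and 3.41 CPM in HK104 controls, against 19.6 and 18.0 CPM in AF16 controls. At each of these 3 genes the strain difference had the same direction in both conditions. After cold the strains still met the limit on P without overlap, so these genes missed the rule there through A. For WBGene00036855 the parental minus allelic contrast after cold, described below, was 2.05 ± 0.50 (SE; edgeR FDR = 0.0343), smaller than its strain difference. WBGene00036736 had A of -0.31 without cold, just inside the limit.

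At WBGene00039645 the hybrid alleles differed between the conditions. The gene had 1.90 and 0.881 CPM in HK104 cold libraries, against 8.79 and 4.79 CPM in AF16 cold libraries (-2.19 ± 0.37, SE; edgeR FDR = 0.00361), and 4.76 and 5.09 CPM in HK104 controls, against 31.3 and 37.9 CPM in AF16 controls. The hybrid alleles were balanced without cold, at 133 HK104 and 125 AF16 reads (51.6% HK104, 45.5 to 57.6). After cold they were 67 HK104 and 12 AF16 reads (84.8%, 75.3 to 91.1), an imbalance opposite to the difference between the strains. The single WormBase ID of the 47 whose strains changed sign, WBGene00031134, had P of -0.17 after cold and 1.47 without cold, and its difference after cold did not pass the test (edgeR FDR = 0.971); it was picked out after its values were seen.

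The genes chosen from the cold libraries were tested in the control libraries in the same way. Of 134 genes, 113 had the same sign in the fit without cold, and 21 (15.7%) passed the test, 9 higher and 12 lower in HK104, all in the direction of the cold libraries. Of all genes, 7.01% passed, 3.01% higher and 4.00% lower in HK104. Of the 422 genes with the same strain criterion after cold but unequal alleles, 392 kept the sign of P and 214 (50.7%) passed. The median size of P without cold was 0.54 in the 134 genes, 1.12 in those 422 and 0.19 in all genes with the read minimum. A fit of the 4 control libraries alone called 53 of the 134 (39.6%), of which 52 had the direction seen after cold, against 17.0% of the 12980 genes tested in it. The exception, WBGene00270753, picked out after its values were seen, had 129 and 124 CPM in HK104 cold libraries, against 64.1 and 31.3 CPM in AF16 cold libraries, and 186 and 182 CPM in HK104 controls, against 276 and 241 CPM in AF16 controls. Its log2 difference without cold was -0.51 ± 0.09 (SE, n = 2 each; edgeR FDR = 0.0133) in that fit and -0.50 (edgeR FDR = 0.345) in the fit of all 8 libraries. The difference between the lists in the share called was not tested. The count of 21 also moved with single libraries: it was 13 and 8 without the first and the second AF16 control library, 8 without either HK104 control library and 33 without the first AF16 cold library.

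WBGene00270751 was the gene with the largest P in favour of HK104 among those chosen after cold only. It had 30.9 and 38.1 CPM in HK104 cold libraries, against 3.91 and 2.67 CPM in AF16 cold libraries, and 23.6 and 42.2 CPM in HK104 controls, against 3.49 and 5.80 CPM in AF16 controls (log2 difference without cold 2.81 ± 0.36, SE, n = 2 each; edgeR FDR = 0.00111). Its allele reads were 36 HK104 and 43 AF16 after cold, and 17 HK104 and 35 AF16 without cold (32.7% HK104, 21.5 to 46.2). The strain difference was thus present in both conditions, and A alone kept the gene out without cold.

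WBGene00042194 was far higher in HK104 after cold, and its smaller difference in controls did not pass the test, although the libraries did not overlap there. It had 944 and 652 CPM in HK104 cold libraries, against 121 and 88.6 CPM in AF16 cold libraries, and 3.57 and 2.95 CPM in HK104 controls, against 2.02 and 2.49 CPM in AF16 controls (log2 difference without cold 0.52 ± 0.28, SE; edgeR FDR = 0.399). The hybrid gave 3017 HK104 and 2716 AF16 reads after cold (52.6% HK104, 51.3 to 53.9), and 29 HK104 and 33 AF16 reads without cold. Its large rise in each strain met an almost even split of reads between the alleles of the hybrid.

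On the AF16 side, WBGene00025860 had 0.254 and 0.126 CPM in HK104 cold libraries, against 19.2 and 9.15 CPM in AF16 cold libraries, and 0.227 and 0.231 CPM in HK104 controls, against 46.1 and 36.6 CPM in AF16 controls (log2 difference without cold -7.45 ± 0.45, SE; edgeR FDR = 1.96e-05). The HK104 libraries held so few counts that the size of this difference is poorly set. In the hybrid, the HK104 allele had 34 reads after cold beside 41 AF16 reads, and 47 without cold beside 125 AF16 reads (27.3% HK104, 21.2 to 34.4). WBGene00086774 had 0.381 and 0.189 CPM in HK104 cold libraries, against 5.01 and 3.43 CPM in AF16 cold libraries, and 0.510 and 0.347 CPM in HK104 controls, against 2.39 and 2.67 CPM in AF16 controls (-2.54 ± 0.44, SE; edgeR FDR = 0.00622, and 0.0754 without the second HK104 control library). Its alleles were 22 HK104 and 27 AF16 reads after cold, and 86 HK104 and 19 AF16 reads without cold (81.9% HK104, 73.5 to 88.1), again opposite to the strains. At both genes the HK104 allele was read in the hybrid although HK104 worms gave few counts. Scaled to the total of allele reads, the hybrid level of WBGene00086774 was above the CPM of every parental library of the same condition. That of WBGene00025860 was not above both AF16 libraries in either condition. The hybrid total holds only reads assigned to an allele, and the source of the higher level was not tested.

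**Figure D3:**
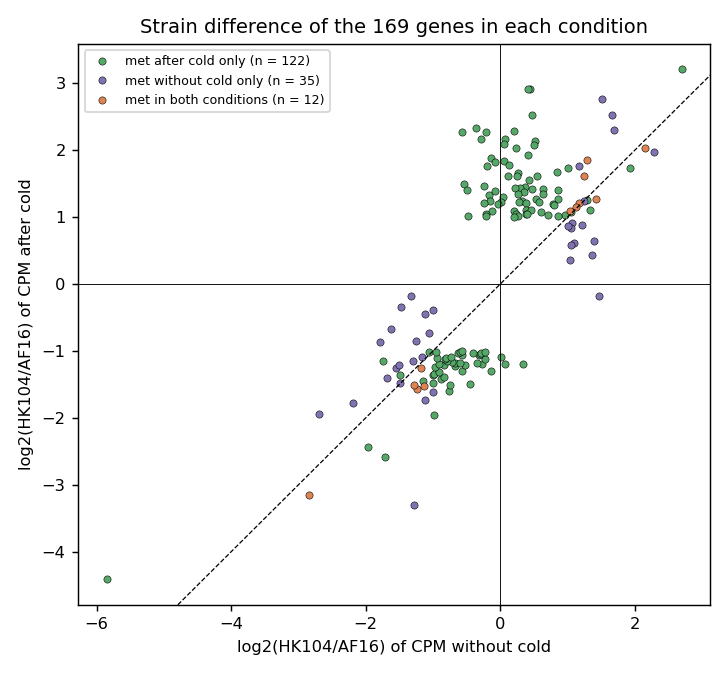
Strain difference P without cold (x axis) against P after cold (y axis), both as log2 of HK104 over AF16 CPM, for the 169 genes, coloured by the condition in which the rule was met; the dashed line marks equal differences. Of the 35 genes met without cold only (purple), 1 crosses 0 and the median size of P is 0.91 after cold, beside 1.29 without cold; for the 122 genes met after cold only (green) it is 1.27 after cold, beside 0.48 without cold.

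Whether the alleles were balanced was also read in the hybrid library that did not choose the genes. Of the 47 genes chosen without cold, 20 (42.6%) had A within 0.32 after cold, below the 56.3% of all 6849 genes. Of the 134 chosen after cold, 81 (60.4%) had A within 0.32 without cold, near the 55.8% of all genes. At genes with the same strain criterion and unequal alleles in the condition that chose them, the shares were 24 of 291 (8.25%) and 88 of 422 (20.9%). With at least 100 reads per library the shares were 57.1% of 28 genes after cold and 73.8% of 65 genes without cold, beside 61.9% and 61.1% of all 5349 genes with that depth. With 1 hybrid library per condition none of these shares was tested. Where A left the limit, it took the sign of the strain difference at 17 of 27 genes chosen without cold and at 34 of 53 chosen after cold, and at 249 of 267 and 286 of 334 genes of the unequal groups. Of the 35 genes met without cold only, 17 had strains at least 2-fold apart after cold too and missed the rule there through A. This held for 13 of the 122 genes met after cold only.

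Parental and allelic differences were then compared in 1 model. The contrast of the parental minus the allelic log2 difference was fitted to the 8 parental libraries and the 4 allele columns. The single hybrid libraries were assumed to vary like the parental ones. Both allele columns of a hybrid library entered as separate libraries, so their pairing was not modelled, and the SE and FDR depend on these assumptions. In the cold libraries, 8 of the 47 genes chosen without cold (17.0%) passed the test, 5 with a positive and 3 with a negative contrast, each in the direction of P. Of all 13503 genes, 7.23% passed, 4.78% with a positive and 2.44% with a negative contrast. These genes were kept by parental counts alone. They include genes under the minimum of allele reads, so their share has an unlike base. With a library size of its own for each allele column, which moved the median of all genes to -0.06 in place of 0.11, the calls were 4 positive and 4 negative. Without any 1 of the 4 control libraries 5 genes passed, and without the first AF16 cold library 13 passed.

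WBGene00029252 had the largest positive contrast after cold, at 2.89 ± 0.56 (SE; edgeR FDR = 0.00933). Its cold libraries had 23.4 and 14.9 CPM in HK104 and 6.18 and 4.30 CPM in AF16, while the cold hybrid gave 19 HK104 and 37 AF16 reads. WBGene00032552, described above, followed at 2.2 ± 0.41 (SE; edgeR FDR = 0.00751). WBGene00036853 had the largest negative contrast (fitted -6.51, edgeR FDR = 9.92e-05). It had 2 and 1 counts in the HK104 cold libraries, so that HK104 was at least 28.3-fold lower than AF16, with 6.44 and 4.30 CPM in the AF16 cold libraries. The fold was taken against 3 counts per library, and the fitted value is no bound. The cold hybrid gave 121 HK104 and 64 AF16 reads at this gene (65.4% HK104, 58.3 to 71.9). WBGene00039645 was next at -4.67 ± 0.67 (SE; edgeR FDR = 0.00148). Scaled to the total of allele reads, the cold hybrid level was above every parental cold library at WBGene00032552, WBGene00036853 and WBGene00039645. At WBGene00029252 it lay between the strains. The source of the higher hybrid levels was not tested.

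Without cold, 4 of the 134 genes chosen after cold passed this test (2.99%), 2 with a positive and 2 with a negative contrast. Of all genes 6.16% passed (3.77% positive and 2.39% negative), again including genes under the minimum of allele reads. The 4 genes were WBGene00270751 (3.85 ± 0.73, edgeR FDR = 0.00855), WBGene00024287 (2.42 ± 0.32, edgeR FDR = 0.00106), WBGene00025860 (-6.03 ± 0.66, edgeR FDR = 0.000271) and WBGene00086774 (-4.71 ± 0.65, SE for each, edgeR FDR = 0.00122). At an unadjusted p below 0.05 the counts were 21 of 134 (15.7%), beside 13.4% of all genes. For the genes chosen without cold they were 17 of 47 after cold (36.2%), beside 15.7% of all genes.

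**Figure D4:**
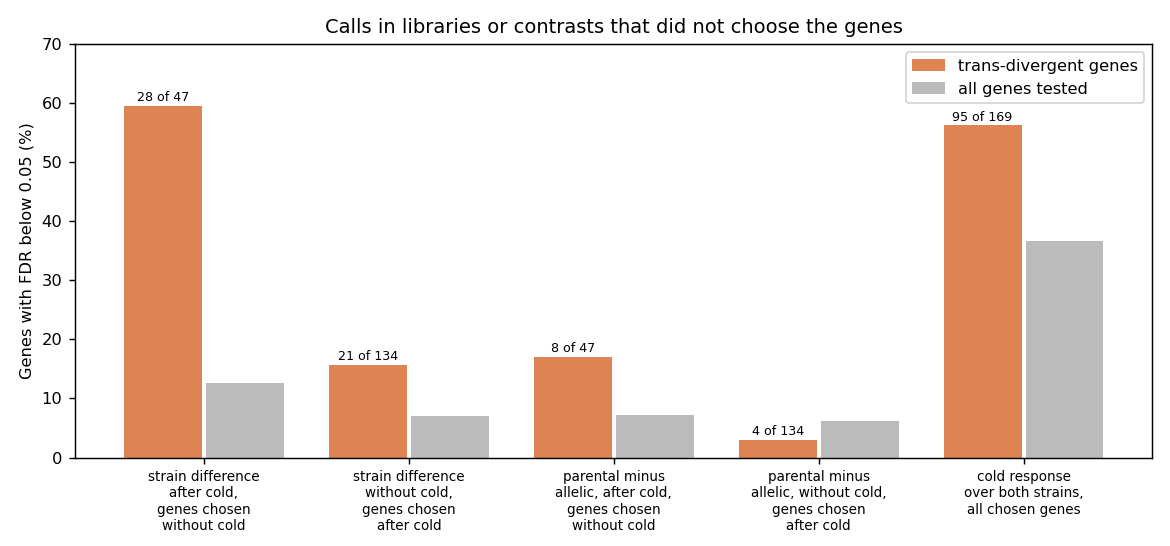
Share of genes with an FDR below 0.05 (y axis, percent) among genes chosen by the rule and among all genes tested (grey), in 5 comparisons. The chosen genes are orange, with the count above the bar, and the legend names them trans-divergent after the criterion of the rule. In 4 of them the genes were chosen by P and A of the other condition, although the minimum of allele reads covered both hybrid libraries. The averaged cold response uses the libraries that chose the genes, in another contrast. The orange bar exceeds the grey bar in 4 comparisons and lies below it for the parental minus allelic difference without cold. The grey bars include genes under the minimum of allele reads, which all orange genes had to meet.

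The cold response averaged over both strains does not use the difference between the strains, although a change in 1 strain alone enters both. Of the 169 genes, 24 rose and 71 fell, 56.2% in all, beside 10.0% higher and 26.6% lower of all 13503 genes (36.7%). The median log2 response was -0.43, beside -0.02 for all genes. Of the 35 genes met without cold only, 2 rose and 20 fell, with a median of -1.31. Of the 122 met after cold only, 21 rose and 45 fell, with a median of -0.33. Of the 12 met in both conditions, 1 rose and 6 fell.

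WBGene00042194, with the values above, had the largest rise, at 6.67 ± 0.21 (SE; edgeR FDR = 2.33e-07). WBGene00037116 rose by 3.89 ± 0.30 (SE; edgeR FDR = 7.91e-06), with 253 and 123 CPM in HK104 cold libraries against 9.47 and 9.14 CPM in HK104 controls, and 113 and 42.0 CPM in AF16 cold libraries against 6.36 and 6.20 CPM in AF16 controls. Its hybrid reads were 909 HK104 and 734 AF16 after cold and 61 HK104 and 38 AF16 without cold. WBGene00271611 fell by 4.01 ± 0.20 on the log2 scale (SE; edgeR FDR = 1.14e-06), to 1.21 and 1.38 CPM in HK104 cold libraries against 26.6 and 26.1 CPM in HK104 controls, and to 5.86 and 3.16 CPM in AF16 cold libraries against 54.3 and 51.5 CPM in AF16 controls. WBGene00034396 fell by 3.99 ± 0.28 on the log2 scale (SE; edgeR FDR = 4.81e-06), to 5.46 and 2.96 CPM in HK104 cold libraries against 112 and 82.9 CPM in HK104 controls, and to 15.2 and 6.86 CPM in AF16 cold libraries against 132 and 83.4 CPM in AF16 controls. In each of these 4 genes the cold and control libraries of a strain did not overlap.

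The genes met after cold only differ in which strain moved, and since their choice contains this difference the counts are a description. Among the 74 higher in HK104, 20 rose in HK104 with no call in AF16, 22 fell in AF16 with no call in HK104, 3 did both, 7 fell in both, 2 rose in both and 20 had no call in either. Among the 48 higher in AF16, 8 fell in HK104 with no call in AF16, 9 fell in both, 1 fell in AF16 with no call in HK104, 1 rose in HK104 with no call in AF16, 1 rose in both and 28 had no call. Over all 169 genes, 29 rose and 44 fell in HK104 (43.2%), against 4.54% higher and 16.6% lower of all genes (21.1%). In AF16, 5 rose and 62 fell (39.6%), against 2.78% higher and 20.1% lower of all genes (22.9%). The difference of the responses itself passed the test at 10 of the 169 genes, 9 higher and 1 lower in HK104, against 0.496% of all genes (0.437% higher and 0.0592% lower). This count was 0 with scaling by total counts and 0 without the second AF16 cold, the second HK104 control or the first HK104 cold library, and 1 or 2 without any other control library. Without the second HK104 control library 46 in place of 73 genes passed in HK104.

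The hybrid's own cold response, the ratio of its summed allele reads scaled to the library total, did not enter P or A and has no replicate; the minimum of 40 reads per library applied to the same reads. It lay between the responses of the strains at 51 of the 74 genes higher in HK104 after cold only, above both at 18 and below both at 5, with medians of 0.07 in the hybrid, 0.57 in HK104 and -0.62 in AF16. At the 48 genes higher in AF16 after cold only it lay between the strains at 21, above both at 23 and below both at 4, with medians of -0.11 in the hybrid, -0.58 in HK104 and -0.21 in AF16. The choice of both lists favours strain responses that lie apart, so these counts are a description. Over the 6849 genes the hybrid response lay between the strains at 26.8%, above both at 39.7% and below both at 33.5%. It was nearer to the higher of the 2 responses at 108 of the 169 genes (63.9%), beside 53.4% of the 6849 genes, and with TMM scaling of the hybrid libraries at 98 (58.0%), beside 46.1%. At the 54 members whose strain responses lay at least 2-fold apart, it was between them at 43 (79.6%), beside 142 of 167 other genes (85.0%). Of the 35 genes met without cold only, the hybrid ratio was below 0 at 22, with a median of -1.06. Of the 6849 genes it was below 0 at 2518, with a median of 0.17.

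**Figure D5:**
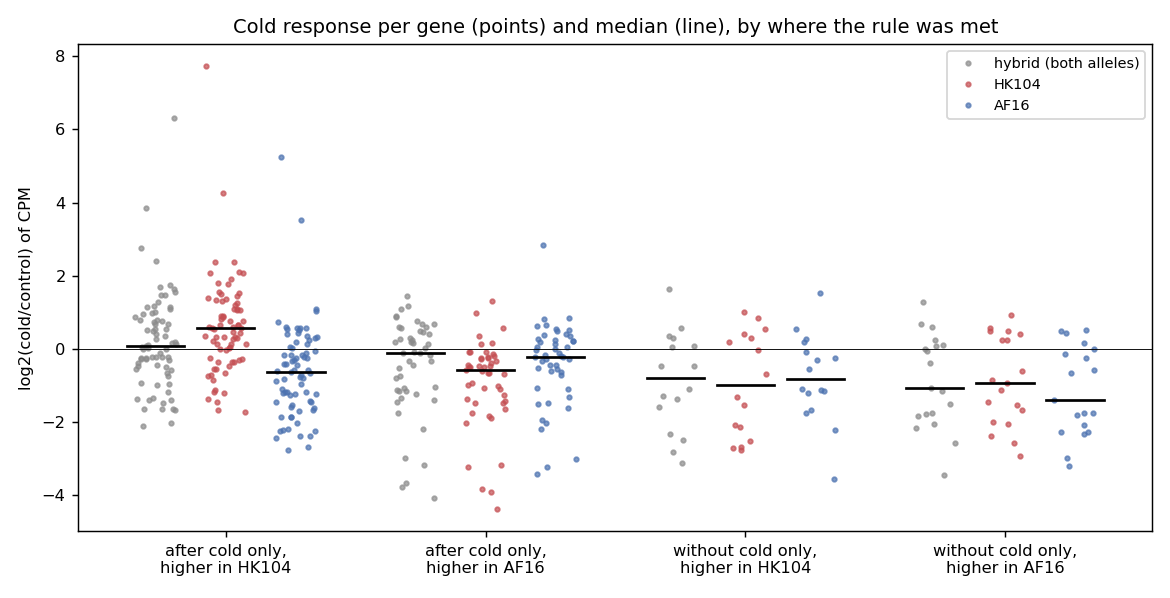
Log2 ratio of cold to control CPM (y axis) in the hybrid (grey), HK104 (red) and AF16 (blue) for genes that met the rule in 1 condition only, split on the x axis by condition and by the strain with the higher level; points are genes and lines are medians. For genes higher in HK104 after cold the hybrid median of 0.07 lies between those of the strains, for those higher in AF16 the hybrid median of -0.11 lies above both, and the genes met without cold have medians below 0 throughout.

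The cold replicates differed at most of these genes in 1 direction, though not equally in each class. The first HK104 cold library exceeded the second at 134 of 169 genes (79.3%), with a median log2 ratio of 0.39, and the first AF16 cold library exceeded the second at 142 (84.0%), with a median of 0.53. Over the 6849 genes the shares were 59.6% and 52.6%, and the medians 0.10 and 0.04. In HK104 the shift lay mainly in genes met after cold only and higher in HK104, at 70 of 74 (median 0.61). Among those higher in AF16 the first HK104 cold library exceeded the second at 27 of 48 (median 0.18). The first AF16 cold library exceeded the second at 59 of those 74 genes (median 0.52) and 44 of those 48 (median 0.53). In controls the first library was higher at 45.0% of the 169 genes in HK104 and 45.6% in AF16. In the labels, the library names of both first cold libraries end in _C and those of no other library do; the labels do not say what it stands for. The median size of the replicate difference at the 134 genes chosen after cold was 0.49 in HK104 cold and 0.53 in AF16 cold libraries, beside 0.26 and 0.42 over the 6849 genes. The median level over the parental libraries was 20.4 CPM at these 134 genes and 60.1 CPM at the 6849, so the comparison set is unlike in level. The part of level in the replicate differences, and their part in the choice of the genes, was not tested.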

How the data were processed

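The 8 parental libraries were deposited as raw read counts by gene, and the hybrid as counts per gene and allele in 4 columns named by strain and treatment, read here as the alleles of its 2 libraries. The submitters' processing notes list cutadapt, HISAT2 2.2.0, HTSeq 0.11.1 and edgeR without roles. The genome build, annotation, strand setting, treatment of reads with several matches and allele assignment are not given in the sources used here, so near-identical and overlapping genes are uncertain. A blank line (1) of the hybrid table was left out, and the authors' result tables were not used.

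The members and lists were chosen with earlier results of these data known. No limit on their number (300) was reached. CPM used the column total. The tests used the quasi-likelihood F statistic of edgeR (version 4.0.16 in R 4.3.3, beside limma 3.58.1) under default settings on the 4 parental groups fitted together, with TMM scaling and filterByExpr, which kept 13503 genes and all 169 members; p-values were adjusted by Benjamini-Hochberg over all genes. For the parental minus allelic contrast, the allele columns of a hybrid library shared a library size. The fits were tested on simulated data. DESeq2 1.42.0 was an alternative, as were other scalings, filters, a replicate block and leaving out each library. Replicates differed by more than counting noise (chi-square over its degrees of freedom, 8.08 to 91.8). Genes were named as those with the largest P of each kind, the largest averaged responses and the largest parental minus allelic contrasts in each direction, at most 2 per kind; in the fit of the 8 libraries no gene had a called strain difference of opposite sign in the other condition. SE is the size of the log2 value over the root of F.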

Additional observations from a re-analysis of the deposited data

Results flagged for a closer look

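Responses to cold that differed between HK104 and AF16 in the strain-by-cold contrast were found at 10 of the 169 genes (5.92%, against 0.496% of all 13503 genes; edgeR FDR below 0.05). For genes chosen in 1 condition this contrast contains the strain difference that chose them, so the count is a description. No call was left with scaling by total counts, or without the second AF16 cold, the second HK104 control or the first HK104 cold library. At 9 genes, all met after cold only and higher in HK104, the response was higher in HK104. WBGene00038446 had the largest such difference, 3.19 ± 0.48 (SE; edgeR FDR = 0.0241), with 15.7 and 7.43 CPM in HK104 cold libraries against 6.86 and 8.04 CPM in HK104 controls, and 2.28 and 1.69 CPM in AF16 cold libraries against 11.1 and 11.3 CPM in AF16 controls. At WBGene00089170 it was 2.82 ± 0.28 (SE; edgeR FDR = 0.00963), with 85.9 and 77.8 CPM in HK104 cold libraries against 28.2 and 28.0 CPM in HK104 controls, and 18.5 and 13.1 CPM in AF16 cold libraries against 38.9 and 33.6 CPM in AF16 controls; its hybrid alleles had 102 HK104 and 98 AF16 reads after cold and 89 HK104 and 76 AF16 reads without cold. The other 7 had log2 differences of 2.62, 2.61, 2.47 (WBGene00042194), 2.24, 2.17, 2.01 and 1.71.

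WBGene00036853 was the single gene with a lower response in HK104 (fitted difference -4.21, edgeR FDR = 0.0228, no bound because HK104 cold libraries had 2 and 1 counts). It fell at least 16.1-fold in HK104, to those counts against 3.35 and 2.78 CPM in HK104 controls, beside 6.44 and 4.30 CPM in AF16 cold libraries against 7.96 and 8.41 CPM in AF16 controls.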

How the results depend on the processing

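The number of genes that met the rule, 169, was 113 with A of at most 0.2 and 249 with at most 0.5, and fell to 83 with at least 100 allele reads. Leaving out 1 library gave 172 to 259, of which 123 to 167 were among the 169. The fewest were shared without the first HK104 cold library (123) and without either AF16 cold library (140 each). Dividing alleles by their column totals also gave 169 genes, of which 122 were shared. Calls after cold among genes chosen without cold ranged from 20 to 30 without 1 library and from 23 to 33 under the other settings, and averaged cold responses from 17 to 33 higher and 59 to 74 lower without 1 library. Calls without cold among genes chosen after cold were 53 with the control libraries alone and 8 to 33 without 1 library. Parental minus allelic calls without 1 library were 5 to 13 after cold and 4 to 8 without cold. The strain-by-cold count of 10 became 0 with total counts, 17 without a filter, 21 with DESeq2 and 18 with the replicate block, and 0 to 11 without 1 library; responses in HK104 gave 46 to 81 and in AF16 53 to 82 calls. With at least 100 allele reads the balanced shares were 57.1% and 73.8%. DESeq2 size factors moved the median strain difference of all genes after cold to -0.07 in place of 0.06. The causes were not tested. Replicate numbers in the labels are shared between groups, but the labels name no shared batch or day, and the numbers were not taken to pair the samples. The deviations of same-numbered libraries correlated between -0.07 and 0.43 (highest between the AF16 and HK104 cold libraries). Whether the cold libraries of a number share a factor was not tested. The replicate block gave 33, 31, 102, 11 and 7 calls in place of 28, 21, 95, 8 and 4. Of 252 values of single genes under alternatives, 248 kept their side of the threshold, 4 no longer passed and 0 changed sign. The hybrid libraries have no replicate, and allele reads limit A.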
